A study of Mus musculus with 18 samples.

Results

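The CXC chemokines are small secreted proteins that direct leukocyte migration, and 10 of their genes were followed here: Cxcl1, Cxcl2, Cxcl3, Cxcl5, Cxcl9, Cxcl10, Cxcl11, Cxcl12, Cxcl13 and Cxcl16. They were chosen by symbol among the 21441 genes listed in each of 2 expression tables, for RAW264.7 macrophages and for mouse liver. No rule on measured values was used, but earlier results of these data were known when the set was chosen. The set was read as 4 neutrophil-attracting genes (Cxcl1, Cxcl2, Cxcl3 and Cxcl5), 3 interferon-induced genes (Cxcl9, Cxcl10 and Cxcl11) and 3 others (Cxcl12, Cxcl13 and Cxcl16).

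As background, lipopolysaccharide (LPS), which coats Gram-negative bacteria, is sensed by Toll-like receptor 4 and activates NF-κB and, through interferon regulatory factors, type I interferon. CXCL1, CXCL2, CXCL3 and CXCL5 act on CXCR2 and draw neutrophils into tissue, and their genes are classical NF-κB targets. CXCL9, CXCL10 and CXCL11 act on CXCR3, draw T and NK cells, and are induced by interferon, with NF-κB as a further input. CXCL12 acts on CXCR4 and retains haematopoietic cells in bone marrow, CXCL13 acts on CXCR5 and organises B-cell follicles, and CXCL16 is a membrane-anchored ligand of CXCR6 that ADAM10 and ADAM17 cleave from the cell surface.

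RNA-seq was used to compare control, LPS and LPS+MIC-1 libraries, 3 each in RAW264.7 cells, an established mouse macrophage cell line, and 3 each in liver of wild type C57BL/6 mice, to see how moringa isothiocyanate-1 (MIC-1), an isothiocyanate from Moringa oleifera seeds, alters the response to LPS. Control mice received saline, LPS mice 10 mg/kg LPS into the peritoneum, and LPS+MIC-1 mice 80 mg/kg MIC-1 by gavage for 3 days before the same LPS injection. The study describes gavage with either MIC-1 or vehicle over these days, with diluted DMSO as the vehicle. Livers were taken 16 hours after the injection, and all the mice were male. In macrophages MIC-1 was given at 10 µM per the column headings, the labels of these libraries repeat the strain and doses of the mice, and the LPS dose and time of the sequenced cultures are not given in the sources used here. No group received MIC-1 alone, so each MIC-1 value is one in the presence of LPS. Nothing states that the macrophage libraries came from separate cultures, so p-values measure the spread between these libraries, which may be technical.

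Of the 10 genes, 8 lie on mouse chromosome 5. On mm9 (GENCODE M1), Cxcl5 (91188325 to 91190651), Cxcl3 (91215129 to 91217112), Cxcl1 (91320267 to 91322141) and Cxcl2 (91332897 to 91334935) lie on the plus strand within 146.6 kb, and Cxcl9 (92750357 to 92757105), Cxcl10 (92775664 to 92777915) and Cxcl11 (92788570 to 92794511) lie on the minus strand within 44.16 kb, with 1415 kb between both clusters. Cxcl11 is annotated there as a processed transcript rather than a protein-coding gene. Cxcl13 (96385945 to 96390086) lies further along the plus strand of chromosome 5, Cxcl12 on chromosome 6 (117118553 to 117131385, plus strand) and Cxcl16 on chromosome 11 (70267485 to 70273486, minus strand).

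Promoter windows from 250 bases before to 50 bases after the annotated start were taken from RefSeq (GRCm38.p6) for 7 of the 10 genes, without Cxcl5, Cxcl11 and Cxcl16, and searched on both strands for the NF-κB consensus, the core of the interferon-stimulated response element (ISRE, GAAA, any 2 bases and GAAA) and the gamma-activated site (GAS, TTCNNNGAA). The bases from 150 to 51 before the start are shown for Cxcl1, Cxcl2 and Cxcl3, because they hold the same site in 3 genes whose levels differed widely, and those from 250 to 51 before the start for Cxcl10 and Cxcl9, 2 interferon-induced genes that differ in matches. Each is written 5′ to 3′ along the gene, with matches in capitals.
Cxcl1, chr5:90891095-90891194, plus strand: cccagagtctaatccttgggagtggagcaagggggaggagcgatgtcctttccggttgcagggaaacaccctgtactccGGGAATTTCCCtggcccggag
Cxcl2, chr5:90903749-90903848, plus strand: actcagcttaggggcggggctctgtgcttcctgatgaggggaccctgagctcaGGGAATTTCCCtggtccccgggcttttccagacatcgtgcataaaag
Cxcl3, chr5:90785951-90786050, plus strand: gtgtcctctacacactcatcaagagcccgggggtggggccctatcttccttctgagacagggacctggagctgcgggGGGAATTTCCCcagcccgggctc
Cxcl10, chr5:92348940-92349139, minus strand: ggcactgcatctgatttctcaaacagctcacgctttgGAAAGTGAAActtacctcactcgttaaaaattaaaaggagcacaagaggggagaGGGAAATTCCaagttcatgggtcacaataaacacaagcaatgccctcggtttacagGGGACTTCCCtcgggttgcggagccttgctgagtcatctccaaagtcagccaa
Cxcl9, chr5:92328130-92328329, minus strand: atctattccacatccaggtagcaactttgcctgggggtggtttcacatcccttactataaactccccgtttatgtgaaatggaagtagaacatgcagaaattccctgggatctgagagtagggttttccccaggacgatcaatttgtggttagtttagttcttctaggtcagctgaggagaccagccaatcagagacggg

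The NF-κB match was the same 11 bases, GGGAATTTCCC, in Cxcl1 (positions -71 to -61 from the start), Cxcl2 (-97 to -87) and Cxcl3 (-73 to -63), where overlapping matches on both strands make up the run. Of 32851 promoter windows, 14 (0.0426%) held these 11 bases, while 4.51% held the NF-κB consensus. Cxcl10 held 2 NF-κB matches, GGGAAATTCC (-159 to -150) and GGGACTTCCC (-103 to -94), and the ISRE core GAAAGTGAAA (-213 to -204), a motif found in 3.44% of windows. The windows of Cxcl9, Cxcl12 and Cxcl13 held none of the 3 motifs, and the GAS letters, in 8.3% of all windows, were in none of the 7. A match of letters does not show binding, and a missing match concerns these windows alone.

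**Figure D1:**
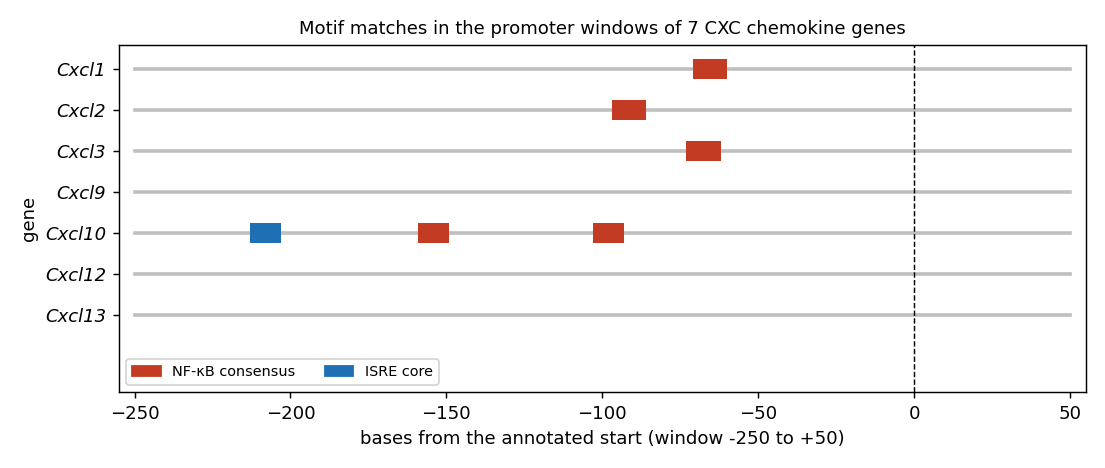
Matches to the NF-κB consensus and the ISRE core in the promoter windows of 7 CXC chemokine genes, with bases from the annotated start on the x axis and 1 gene per line. Cxcl1, Cxcl2 and Cxcl3 carry their match between positions -97 and -61, and Cxcl10 carries 3 matches between positions -213 and -94.

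Levels are given as FPKM (fragments per kilobase of transcript, scaled for library size), which can be compared between genes within a table. A gene was tested where its mean FPKM over the 9 libraries of a table was above 1 (9905 genes in macrophages and 10147 in liver), with limma on log2(FPKM + 0.5), and it was called changed where the absolute log2 fold change (Log2FC) was above 1 and the adjusted p-value was below 0.01 in macrophages or 0.05 in liver. With the added 0.5, the Log2FC of a gene near 0 is too small. Depth, estimated from the steps between low values, was 18700000 to 24300000 reads in macrophages and 4760000 to 19300000 reads in liver, with the liver controls lowest. Libraries have no replicate numbers in the tables and are numbered by column order, as names only. The macrophage LPS library 2 stood apart from its group: across genes its log2 values differed from control library 2 with an SD of 0.21 but from LPS library 1 with an SD of 1.20, so macrophage results are given with and without it. This library was singled out by the same values that are tested, so p-values and calls without it are descriptive only. The study's own overview of the macrophage transcriptomes left out an LPS library, and which one is not given in the sources used here. The liver LPS library 2 differed from LPS library 1 with an SD of 1.00 and from LPS+MIC-1 library 2 with an SD of 0.64. LPS+MIC-1 library 2 in liver also differed from libraries 1 and 3 of its group (SD 0.77 and 0.78) by more than these from each other (SD 0.32). Macrophage identity markers were high (summed 10969 to 13421 FPKM over 7 of 8 listed genes), and the 8 hepatocyte markers summed to 35983 to 85893 FPKM in liver.

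In macrophages the 2 classes went opposite ways with LPS+MIC-1: against control Cxcl2 and Cxcl3 rose and Cxcl10 fell, and against LPS Cxcl11 fell. Cxcl2 and Cxcl3 reached their highest levels with LPS+MIC-1, while Cxcl10 and Cxcl11 reached their lowest. Of the 10 genes, 5 passed the expression filter (Cxcl2, Cxcl3, Cxcl10, Cxcl11 and Cxcl16), and the other 5 stayed at or below 1.00 FPKM in every library.

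Cxcl2 encodes a neutrophil attractant that macrophages secrete early after LPS. It measured 87.3, 210 and 99.3 FPKM in control, 1492, 197 and 1598 FPKM with LPS, and 4957, 4929 and 5158 FPKM with LPS+MIC-1. All the LPS+MIC-1 libraries lay above every other library, and LPS library 2 lay within the range of the controls. Against LPS, the Log2FC with MIC-1 was 2.69 (SE 0.75, limma adjusted p = 0.0401), which missed the threshold of 0.01. Without LPS library 2 it rose by a Log2FC of 1.70 (SE 0.32, limma adjusted p = 0.00228). Against control, Cxcl2 rose with LPS+MIC-1 by a Log2FC of 5.35 (SE 0.75, limma adjusted p = 0.00289), a 37.9-fold difference of the mean FPKM, a call that 6 of 21 alternatives lost. The step from control to LPS was 2.66 (SE 0.75, limma adjusted p = 0.0777) with all libraries and a rise of 3.65 (SE 0.32, limma adjusted p = 2.84e-05) without LPS library 2.

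Cxcl3, a close relative of Cxcl2, was nearly silent without LPS. Its levels were 0.0974, 0.317 and 0.201 FPKM in control, 20.6, 0.212 and 20.9 FPKM with LPS, and 509, 201 and 514 FPKM with LPS+MIC-1. The LPS+MIC-1 libraries were again apart from all others, with library 2 the lowest of them. Its transcripts share 80 of their 979 stretches of 31 bases with Cxcl2 (8.17%), so most of its reads can be told from those of Cxcl2, and Cxcl1 shares none with either gene. The Log2FC of LPS+MIC-1 against LPS was 5.77 (SE 1.20, limma adjusted p = 0.0146), just short of the call, and Cxcl3 rose by 4.14 without LPS library 2 (SE 0.38, limma adjusted p = 5.39e-05). Against control Cxcl3 rose by a Log2FC of 9.07 with LPS+MIC-1 (SE 1.20, limma adjusted p = 0.00224), and 6 of 21 alternatives lost this call. For LPS against control the Log2FC was 3.29 (SE 1.20, limma adjusted p = 0.0777), and without LPS library 2 a rise of 4.93 was called (SE 0.38, limma adjusted p = 1.49e-05).

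The remaining neutrophil attractants were barely present in the cell line. Cxcl1 was listed at 0 in all 3 controls, at 0, 0.113 and 0.254 FPKM with LPS, and at 0.0624, 0.188 and 0.668 FPKM with LPS+MIC-1, the last value standing for an estimated 9.01 reads. Cxcl5, which epithelial cells are known to make, measured 0.0557, 0 and 0.2002 FPKM in control, 0.0965, 0.122 and 0.362 FPKM with LPS, and 0.834, 1.00 and 0.438 FPKM with LPS+MIC-1. Both were highest in LPS+MIC-1 libraries, but neither passed the filter and neither was tested. The Cxcl1 promoter holds the same 11 bases as those of Cxcl2 and Cxcl3, at 4929 to 5158 and 201 to 514 FPKM with LPS+MIC-1, while Cxcl1 itself was near 0 in these cells.

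**Figure D2:**
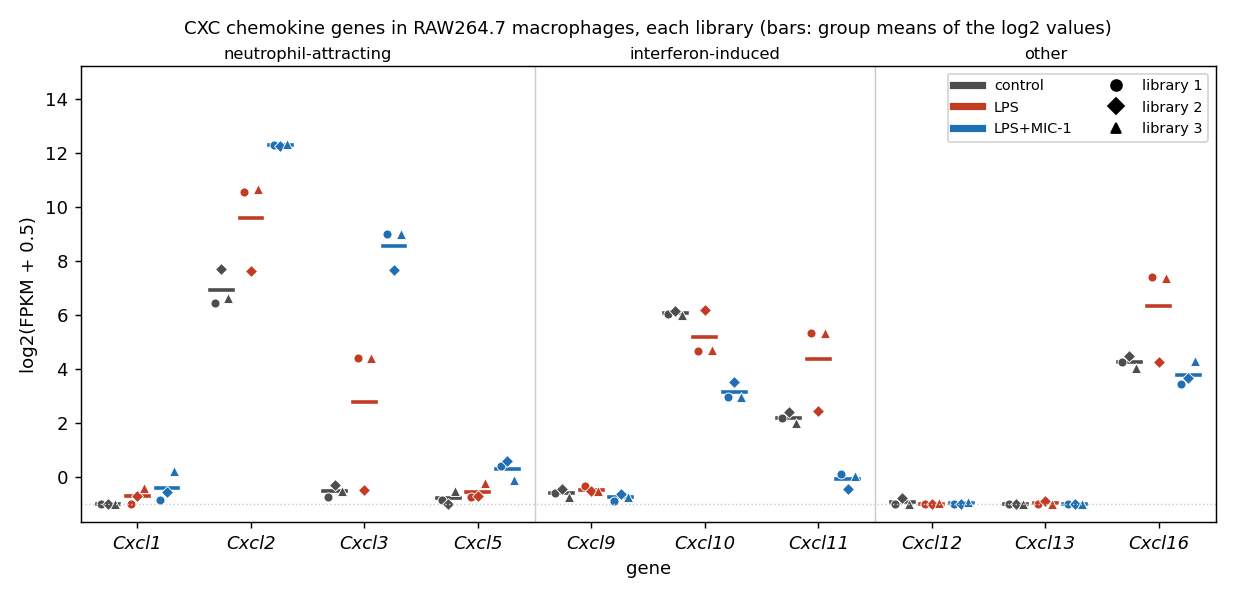
Level of each CXC chemokine gene in each macrophage library, as log2(FPKM + 0.5), with 3 libraries per group and bars at the group means of the log2 values; the dotted line marks 0 FPKM. Cxcl2 and Cxcl3 are highest and Cxcl10 and Cxcl11 lowest with LPS+MIC-1, and LPS library 2 (red diamonds) sits near the controls.

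Cxcl10, whose product IP-10 attracts CXCR3-bearing T cells, was the most abundant interferon-induced member of the set in control macrophages. Its levels were 64.5, 70.1 and 64.3 FPKM in control, 25.1, 71.6 and 25.7 FPKM with LPS, and 7.36, 10.98 and 7.33 FPKM with LPS+MIC-1. The 3 LPS+MIC-1 libraries were below all others, and LPS libraries 1 and 3 were below all controls. Against LPS its Log2FC with MIC-1 was -2.03 (SE 0.38, limma adjusted p = 0.0102), which narrowly missed the call, and without LPS library 2 Cxcl10 fell by 1.54 (SE 0.16, limma adjusted p = 0.000103). Against control Cxcl10 fell by 2.91 on the log2 scale with LPS+MIC-1 (SE 0.38, limma adjusted p = 0.00215), which is 7.74-fold lower in mean FPKM, and 7 of 21 alternatives lost the call. The Log2FC of LPS against control was -0.87 (SE 0.38, limma adjusted p = 0.1005), and -1.37 without LPS library 2 (SE 0.16, limma adjusted p = 0.000133).

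Cxcl11, a further CXCR3 ligand, followed another course. It measured 4.09, 4.78 and 3.54 FPKM in control, 40.3, 4.91 and 40.2 FPKM with LPS, and 0.591, 0.244 and 0.539 FPKM with LPS+MIC-1. It was the only member of the set called between LPS+MIC-1 and LPS with all libraries, and it fell by 4.46 on the log2 scale (SE 0.71, limma adjusted p = 0.00536), or by 5.43 without LPS library 2 (SE 0.19, limma adjusted p = 1.49e-06). The call was lost in 10 of 21 alternatives, with the same direction in each. These were leaving out any other library (limma adjusted p = 0.0135 to 0.0256), fitting only the 2 groups compared (0.0378) and averaging libraries 1 and 3 (0.208). Against control the Log2FC with LPS+MIC-1 was -2.29 (SE 0.71, limma adjusted p = 0.0477), below the controls in every library but short of the threshold, which it passed without LPS library 2 (SE 0.17, limma adjusted p = 2.56e-05). LPS against control gave 2.17 (SE 0.71, limma adjusted p = 0.0777), with LPS library 2 only just above the highest control, and a rise of 3.14 without that library (SE 0.19, limma adjusted p = 4.65e-06). LPS libraries 1 and 3 thus held more Cxcl11 and less Cxcl10 than the controls, although both genes belong to the interferon-induced class.

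Cxcl9, a CXCR3 ligand that depends on interferon gamma, stayed between 0.0363 and 0.289 FPKM in all 9 macrophage libraries, at most an estimated 14.0 reads, and was not tested. Its level was 0.109 to 0.230 FPKM in control, 0.197 to 0.289 FPKM with LPS and 0.0363 to 0.146 FPKM with LPS+MIC-1.

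Outside both classes, Cxcl16 was well expressed in the cell line. It stood at 18.5, 21.9 and 15.8 FPKM in control, 168, 18.9 and 164 FPKM with LPS, and 10.3, 12.2 and 18.9 FPKM with LPS+MIC-1. The LPS+MIC-1 libraries overlapped the controls and lay far below LPS libraries 1 and 3. The Log2FC of LPS+MIC-1 against LPS was -2.55 (SE 0.76, limma adjusted p = 0.0471), and without LPS library 2 Cxcl16 fell by 3.59 (SE 0.24, limma adjusted p = 1.19e-05), after a rise with LPS of 3.13 (SE 0.24, limma adjusted p = 1.34e-05) that with all libraries was 2.09 and not called (SE 0.76, limma adjusted p = 0.0777). LPS+MIC-1 and control were not called apart (Log2FC -0.46, SE 0.76, limma adjusted p = 0.691). Cxcl16 overlaps Zmynd15 on the other strand by 0.552 kb and shares 21.4% of its stretches of 31 bases with it, so part of its reads cannot be placed by sequence alone, while Zmynd15 itself did not exceed 1.67 FPKM in macrophages (a gene named after its value was seen). Cxcl12 and Cxcl13, which stromal cells are known to make, were at or near 0 in every macrophage library.

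Read against all genes, 0 of the 5 tested members were called for LPS against control with all libraries, where 0% of the 9905 tested genes were called by limma at this threshold (smallest adjusted p = 0.0777) and 1901 genes, 19.2% of those tested and 4 members among them, had an unadjusted p below 0.05 and an absolute Log2FC above 1. The groups did not overlap in 1 of 5 members (Cxcl11) against 33.3% of genes. Between LPS+MIC-1 and LPS 1 of 5 was called, as a lower gene, against 3.87% of all tested genes called and 1.81% called lower, and the groups did not overlap in 4 of 5 members against 36.1% of genes. Between LPS+MIC-1 and control 3 of 5 were called, 2 higher and 1 lower, against 5.59% of genes called, 3.27% higher and 2.32% lower, and 4 of 5 did not overlap against 66.4%. Without LPS library 2 the calls were 5, 5 and 4 of 5, where 34.2%, 23.3% and 15.7% of all tested genes were called in the same order. Rescaling all libraries to the same summed FPKM moved the median Log2FC of all genes by -0.63, 0.45 and -0.18 in these 3 comparisons and changed no direction of a macrophage member, but Cxcl10 lost its call for LPS+MIC-1 against control (Log2FC -3.10, limma adjusted p = 0.0116), while for LPS+MIC-1 against LPS 3 members were called in place of 1. Under it the share of calls that were higher went from 53.3% to 86.0% for LPS+MIC-1 against LPS and from 58.5% to 78.0% for LPS+MIC-1 against control.

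The summed levels put the contrast of both classes in 1 pair of values per library. The neutrophil-attracting genes summed to 87.48, 210.2 and 99.71 FPKM in control, 1513, 197.0 and 1619 FPKM with LPS, and 5467, 5130 and 5674 FPKM with LPS+MIC-1. The interferon-induced genes summed to 68.75, 75.08 and 67.96 FPKM in control, 65.74, 76.7 and 66.11 FPKM with LPS, and 7.987, 11.37 and 7.979 FPKM with LPS+MIC-1. The interferon-induced sum was thus close in control and LPS, as less Cxcl10 stood beside more Cxcl11 in LPS libraries 1 and 3. The ratio of the first sum to the second was 1.27 to 2.8 in control, 23.01, 2.57 and 24.5 with LPS and 451 to 711 with LPS+MIC-1. Cxcl2 made up most of the first sum, and Cxcl10 and Cxcl11 together most of the second.

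**Figure D3:**
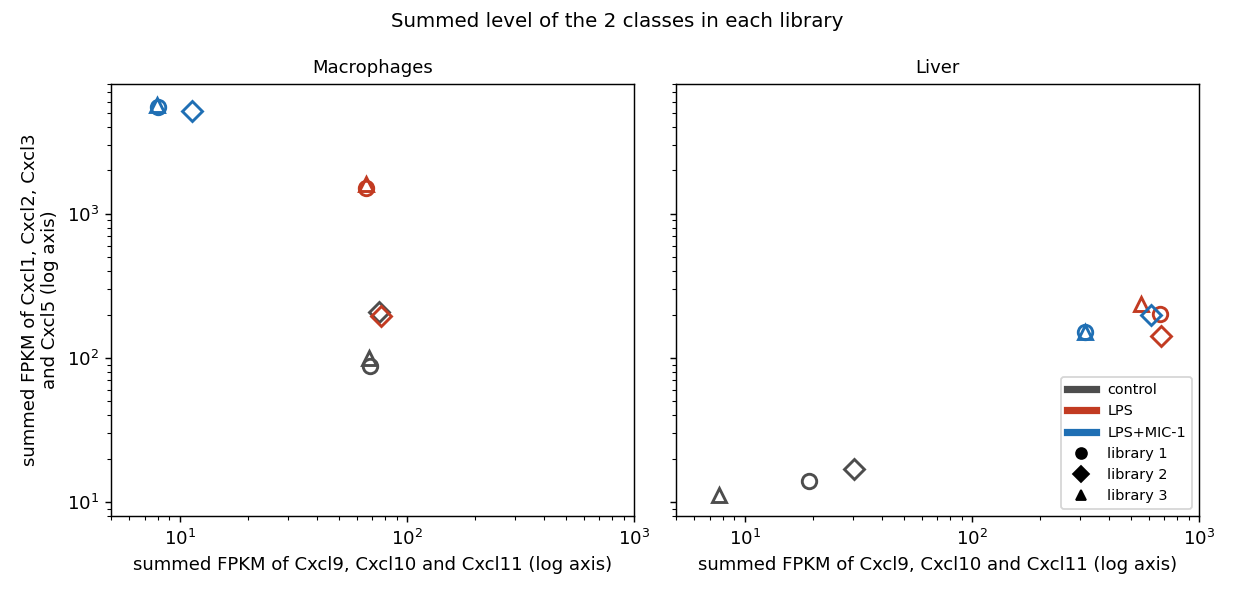
Summed FPKM of the neutrophil-attracting genes (y axis) against that of the interferon-induced genes (x axis), both on log axes, with 1 symbol per library and colours for the groups. In macrophages LPS+MIC-1 libraries sit at the upper left (sums of 5130 to 5674 and 7.979 to 11.37 FPKM), and in liver both sums are higher with LPS and LPS+MIC-1 than in control.

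Neutrophil markers moved with the rise of Cxcl2 and Cxcl3 in macrophages: the 11 listed markers found summed to 3.21 to 5.41 FPKM in control, 33.6, 5.68 and 44.0 FPKM with LPS, and 691 to 757 FPKM with LPS+MIC-1. Nearly all of this was S100a8, a calcium-binding protein that stimulated macrophages also make (651, 676 and 718 FPKM with LPS+MIC-1). Of 3 tested markers 2, S100a8 and the collagenase gene Mmp8, were called higher with LPS+MIC-1 than with LPS. Of all tested genes 3.87% were called in that comparison. The granule markers Ltf, Ngp and Retnlg did not exceed 0.0934 FPKM in any library, Mpo 0.0281 FPKM and Elane 0.132 FPKM. T and NK cell markers summed to at most 0.987 FPKM. The part of S100a8-expressing cells in the chemokine levels was not tested.

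In liver genes of both classes rose with LPS, Cxcl1 of the neutrophil attractants and Cxcl9 and Cxcl10 of the interferon-induced genes. Of the tested genes these were 1 of 2 neutrophil attractants and 2 of 2 interferon-induced genes. Between LPS+MIC-1 and LPS no tested member was called, where 0% of all tested genes were called. The Cxcl10 libraries of both groups nevertheless did not overlap. Of the 10 genes, 6 passed the filter (Cxcl1, Cxcl2, Cxcl9, Cxcl10, Cxcl12 and Cxcl13). Cxcl11 and Cxcl16 were listed at 0 in all 9 libraries, and since Ywhaz and Gusb, genes that most cells use, were also listed at 0 in 3 and 2 of the 9, no absence is read from these zeros. Livers hold many cell types, and in such bulk tissue more cells of a type and more RNA per cell cannot be told apart.

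Cxcl1 was the main neutrophil attractant of the liver. It measured 12.4, 12.1 and 7.83 FPKM in control, 192, 139 and 226 FPKM with LPS, and 146, 192 and 147 FPKM with LPS+MIC-1. Both LPS groups lay above all controls and overlapped each other. Cxcl1 rose with LPS by a Log2FC of 4.04 (SE 0.26, limma adjusted p = 0.000204), 17.2-fold in mean FPKM, and with LPS+MIC-1 by 3.86 against control (SE 0.26, limma adjusted p = 0.000213). Between LPS+MIC-1 and LPS the Log2FC was -0.18 (SE 0.26, limma adjusted p = 0.997).

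Cxcl2, the most abundant member in macrophages, was low in liver and was not called in any comparison. Its levels were 1.41, 4.34 and 3.32 FPKM in control, 7.24, 2.52 and 7.78 FPKM with LPS, and 4.57, 2.67 and 4.35 FPKM with LPS+MIC-1. The 3 groups overlapped, and library 2 was lowest in both LPS groups. The Log2FC was 0.82 for LPS against control (SE 0.47, limma adjusted p = 0.196), -0.44 for LPS+MIC-1 against LPS (SE 0.47, limma adjusted p = 0.997) and 0.38 for LPS+MIC-1 against control (SE 0.47, limma adjusted p = 0.546). Without LPS library 2 the first of these was 1.29 and was called (limma adjusted p = 0.0338).

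The other neutrophil attractants were scarce. Cxcl3 did not exceed 0.608 FPKM, an estimated 4.03 reads at most, and showed no order between the groups. Cxcl5 was listed at 0 in all controls, measured 1.68, 0.462 and 1.78 FPKM with LPS, and 0, 4.52 and 0.0488 FPKM with LPS+MIC-1. The highest Cxcl5 value stood for an estimated 82.0 reads in a single LPS+MIC-1 library, so the group is not described by its mean.

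Cxcl9, near 0 in macrophages, reached the highest level of any member in liver. It measured 16.5, 27.0 and 5.25 FPKM in control, 658, 661 and 535 FPKM with LPS, and 301, 601 and 302 FPKM with LPS+MIC-1. Libraries 1 and 3 of LPS+MIC-1 were below every LPS library and library 2 was within their range. Cxcl9 rose with LPS by a Log2FC of 5.47 (SE 0.53, limma adjusted p = 0.000609) and with LPS+MIC-1 by 4.77 against control (SE 0.53, limma adjusted p = 0.0011). The Log2FC of LPS+MIC-1 against LPS was -0.70 (SE 0.53, limma adjusted p = 0.997).

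Cxcl10 rose in liver with LPS+MIC-1 against control, the comparison in which it fell in macrophages. Its levels were 2.70, 3.26 and 2.48 FPKM in control, 16.2, 20.2 and 19.2 FPKM with LPS, and 13.0, 12.0 and 11.6 FPKM with LPS+MIC-1. The rise with LPS was a Log2FC of 2.52 (SE 0.16, limma adjusted p = 0.000204), 6.58-fold in mean FPKM, and that of LPS+MIC-1 against control 1.94 (SE 0.16, limma adjusted p = 0.000451). All LPS+MIC-1 libraries were below all LPS libraries, with a Log2FC of -0.58 (SE 0.16, limma unadjusted p = 0.0068, adjusted p = 0.997). It was the only tested member whose LPS+MIC-1 and LPS libraries did not overlap in liver, as did 9.75% of all tested genes, and an exact permutation test of 3 against 3 libraries cannot go below p = 0.1.

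**Figure D4:**
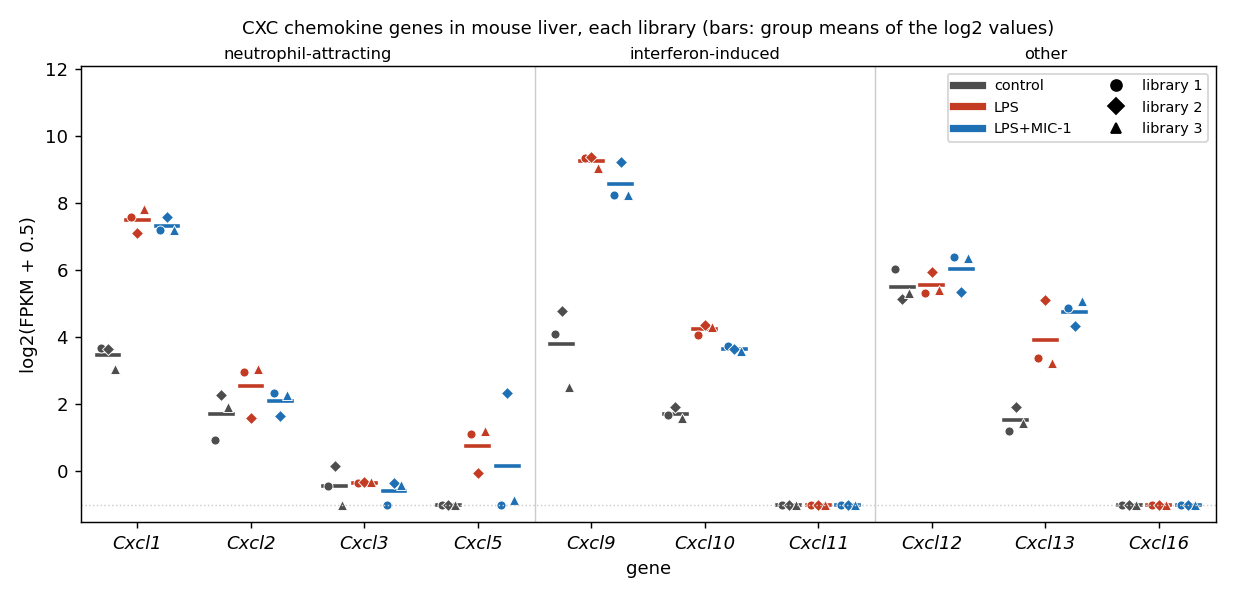
Level of each CXC chemokine gene in each liver library, as log2(FPKM + 0.5), with 3 libraries per group and bars at the group means of the log2 values; the dotted line marks 0 FPKM. Cxcl1, Cxcl9, Cxcl10 and Cxcl13 are higher in every LPS and LPS+MIC-1 library than in every control, and Cxcl11 and Cxcl16 are listed at 0.

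Among the others, Cxcl13, the B-cell attractant, measured 1.79, 3.30 and 2.21 FPKM in control, 10.0, 34.3 and 8.94 FPKM with LPS, and 28.6, 19.9 and 33.5 FPKM with LPS+MIC-1. It rose with LPS by a Log2FC of 2.40 (SE 0.48, limma adjusted p = 0.00873) and with LPS+MIC-1 by 3.25 against control (SE 0.48, limma adjusted p = 0.00291). LPS library 2 held the highest value of all 9, and the 2 LPS groups overlapped (Log2FC 0.85, SE 0.48, limma adjusted p = 0.997), with 1.45 and no call without LPS library 2 (limma adjusted p = 0.091) and 0.51 without LPS library 3. Cxcl12, made by stromal and endothelial cells, was present in every library, at 65.6, 34.7 and 39.7 FPKM in control, 39.3, 60.7 and 41.9 FPKM with LPS, and 83.3, 40.0 and 81.8 FPKM with LPS+MIC-1. Its groups overlapped, and no comparison called it (Log2FC 0.05, 0.48 and 0.53, each with SE 0.36, limma adjusted p = 0.927, 0.997 and 0.268). Without LPS+MIC-1 library 2, the lowest of its group, the last 2 values were 0.82 and 0.87, also not called.

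Of the 6 members tested in liver, 4 were called higher with LPS than in control, against 24.6% of the 10147 tested genes called in either direction and 13.4% called higher. The same number was called for LPS+MIC-1 against control, where 25.2% of genes were called and 13.8% called higher. These 2 comparisons share the control libraries. The share of calls that were higher went from 54.4% to 30.1% and from 54.5% to 17.2% when all libraries were rescaled to the same summed FPKM, which moved the median Log2FC of all genes by -0.32 and -0.58, and the 4 members were still called higher. The groups did not overlap in 4 of 6 members in either comparison, against 45% and 54.6% of genes. Between LPS+MIC-1 and LPS 0 of 6 members were called and 0% of all tested genes by limma (smallest adjusted p = 0.0546), while 100 genes (0.986%) had an unadjusted p below 0.05 with an absolute Log2FC above 1. Cxcl10 had an unadjusted p below 0.05 too, but an absolute Log2FC below 1.

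The class sums in liver ran together. The neutrophil-attracting genes summed to 11.15 to 17.04 FPKM in control, 141.9 to 235.6 FPKM with LPS and 150.6 to 199.6 FPKM with LPS+MIC-1, and the interferon-induced genes to 7.732 to 30.27, 554.0 to 680.9 and 313.9 to 613.0 FPKM. The ratio of the first to the second was 0.563 to 1.44 in control, 0.208 to 0.425 with LPS and 0.326 to 0.484 with LPS+MIC-1, so it lay on both sides of 1 in control and below 1 in all 6 LPS and LPS+MIC-1 libraries. In macrophages it was above 1 in all 9 libraries. Both tables were normalized separately, so no level was tested between them.

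By order of mean FPKM, Cxcl2 led in control macrophages (87.3 to 210 FPKM), apart from Cxcl10 (64.3 to 70.1), Cxcl16 (15.8 to 21.9) and Cxcl11 (3.54 to 4.78), and these 4 did not overlap. With LPS+MIC-1 the order was Cxcl2, Cxcl3, then Cxcl16 and Cxcl10, whose ranges overlapped (10.3 to 18.9 against 7.33 to 10.98 FPKM), and the rest at or below 1.00 FPKM. In control liver Cxcl12 led (34.7 to 65.6 FPKM), Cxcl9 and Cxcl1 followed with overlapping ranges (5.25 to 27.0 and 7.83 to 12.4), and Cxcl2, Cxcl10 and Cxcl13 overlapped below them. With LPS, Cxcl9 led at 535 to 661 FPKM, apart from Cxcl1 at 139 to 226, which was apart from Cxcl12 at 39.3 to 60.7, and Cxcl10 and Cxcl13 overlapped.

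**Figure D5:**
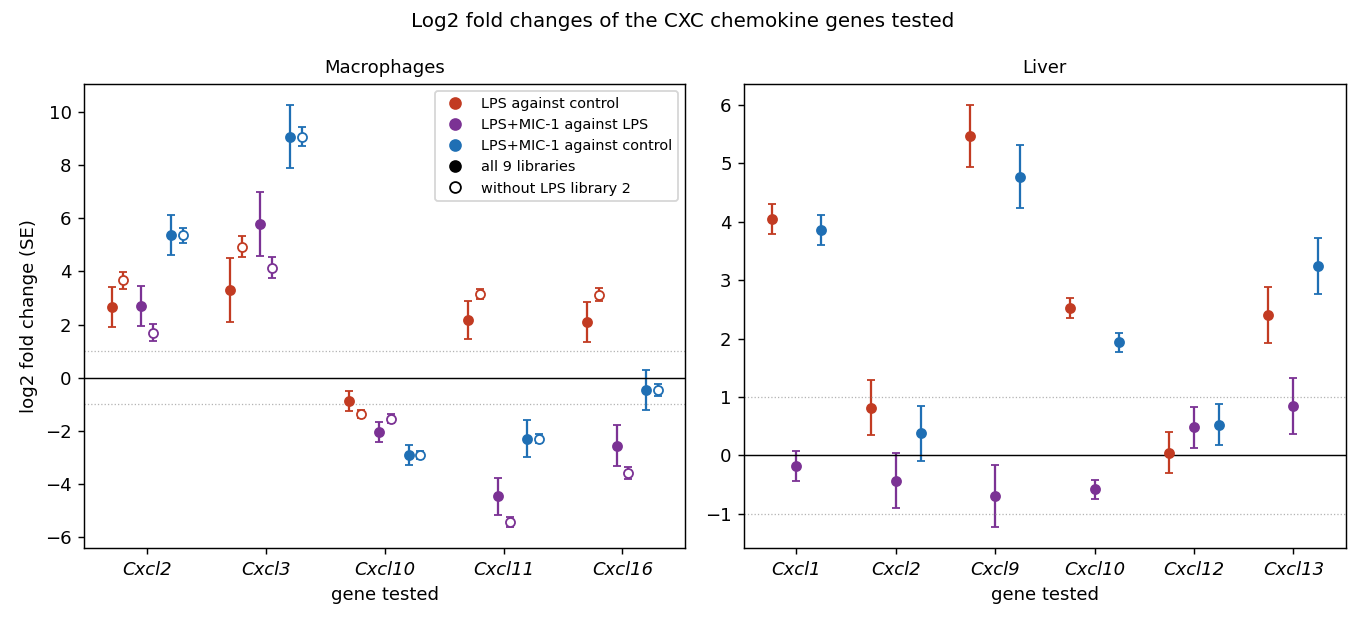
Log2 fold changes of the tested CXC chemokine genes with standard errors from limma, for 3 comparisons in macrophages (left, filled with all 9 libraries, open without LPS library 2) and liver (right); the y axes differ and dotted lines mark an absolute value of 1. In macrophages Cxcl2 and Cxcl3 lie above 0 and Cxcl10 and Cxcl11 below 0 for LPS+MIC-1 against LPS (2.69, 5.77, -2.03 and -4.46), and in liver all 6 values of that comparison lie between -0.70 and 0.85.

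Receptors of these ligands were followed in the same libraries. Cxcr2, the neutrophil receptor for CXCL1, CXCL2, CXCL3 and CXCL5, measured 26.5, 42.6 and 36.2 FPKM in control liver, 7.19, 10.1 and 3.89 FPKM with LPS, and 4.32, 7.79 and 3.59 FPKM with LPS+MIC-1. It fell with LPS by 2.30 on the log2 scale (SE 0.38, limma adjusted p = 0.0049) and with LPS+MIC-1 by 2.68 (SE 0.38, limma adjusted p = 0.0025), opposite in direction to its ligand Cxcl1 in both. Cxcr2 is also 1 of 8 tested neutrophil markers, and the other 7 (S100a8, S100a9, Ngp, Camp, Elane, Retnlg and Mmp8) were called higher with LPS, beside 13.4% of all tested genes. The 11 neutrophil markers found summed to 37.7 to 53.1 FPKM in control, 354 to 451 FPKM with LPS and 193, 465 and 206 FPKM with LPS+MIC-1. Darc, which encodes the atypical receptor ACKR1 that binds neutrophil attractants, was called higher with LPS alone (Log2FC 1.13, SE 0.34, limma adjusted p = 0.0348). Macrophage markers summed to 31.5 to 45.8 FPKM in control liver, 631, 127 and 615 FPKM with LPS, and 134, 450 and 138 FPKM with LPS+MIC-1, and Kupffer cell markers to 73.8 to 81.2, 104 to 134 and 136 to 208 FPKM. The macrophage sum does not stand for each marker: of 5 tested with LPS against control, 2 were called higher (Itgam and Cd14). Their median Log2FC was 0.93, where that of all tested genes was 0.15. The Kupffer cell sum hides opposite changes: of 7 tested markers, Marco and C1qb were called higher with LPS and Clec4f and Vsig4 lower. Of all tested genes 24.6% were called in that comparison. The part of these cells in the levels of the ligands was not tested.

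Cxcr3, the receptor for the interferon-induced ligands, did not exceed 0.354 FPKM in liver and was not tested there, where the 9 T and NK cell markers summed to 7.72 to 18.3 FPKM. In macrophages Cxcr3 measured 3.94, 5.36 and 3.69 FPKM in control, 0.448, 4.99 and 0.561 FPKM with LPS, and 1.96, 4.91 and 1.73 FPKM with LPS+MIC-1. It was not called with all libraries, and without LPS library 2 it fell with LPS by 2.25 (SE 0.37, limma adjusted p = 0.000758) and rose by 1.63 when MIC-1 was added (SE 0.37, limma adjusted p = 0.00519). Cxcr4, the receptor for CXCL12, showed the reverse without that library, with a rise of 2.44 and a fall of 2.98 on the log2 scale (SE 0.33 each, limma adjusted p = 0.000271 and 0.00013). Of the 8 receptors 4 were tested in macrophages, and 0 of them were called with all 9 libraries. For LPS against control, LPS+MIC-1 against LPS and LPS+MIC-1 against control, 0%, 3.87% and 5.59% of all tested genes were called.

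Of 5 CXC ligands outside the set, Pf4, a platelet chemokine gene that lies between Cxcl5 and Cxcl3, rose with LPS+MIC-1 in macrophages, from 9.39, 19.5 and 12.6 FPKM with LPS to 104, 47.2 and 106 FPKM (Log2FC 2.56, SE 0.40, limma adjusted p = 0.00507). Ppbp, a platelet chemokine gene below the filter, measured at most 0.29 FPKM in control and LPS and 1.07 to 1.82 FPKM with LPS+MIC-1. In liver neither was called in any comparison, and Cxcl14 rose with LPS (Log2FC 3.33, SE 0.54, limma adjusted p = 0.0045).

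Of 11 genes for NF-κB subunits and inhibitors, all tested in macrophages, 1 was called between LPS+MIC-1 and LPS, as a higher gene: Nfkbiz, which encodes a nuclear co-activator of NF-κB target genes (22.4, 16.4 and 21.6 FPKM with LPS against 63.7, 41.3 and 63.3 FPKM, Log2FC 1.44, SE 0.25, limma adjusted p = 0.00742). Of all tested genes 3.87% were called, and the median Log2FC of the list was 0.45 where that of all tested genes was -0.01. Without LPS library 2, 3 were called higher with LPS than in control (Rel, Nfkbia and Tnfaip3). In that setting 1 was called higher with LPS+MIC-1 than with LPS (Nfkbiz), and 4 higher than in control (Rel, Nfkbia, Nfkbiz and Tnfaip3). Of all tested genes 34.2%, 23.3% and 15.7% were called in these comparisons. In liver 2 of 9 tested were called higher with LPS, Nfkbiz and Tnfaip3, the gene of the inhibitor A20, beside 13.4% of all genes, and 0 were called with MIC-1 against LPS, where 0% of all genes were called.

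Of 18 interferon signalling genes 16 were tested in macrophages, and 0 were called in any comparison with all libraries, where 0%, 3.87% and 5.59% of all genes were called. Without LPS library 2, 5 were called higher with LPS (Ifnar1, Ifnar2, Jak2, Irf7 and Irf8) and 3 lower (Ifngr1, Irf1 and Irf3), and 5 were called lower with LPS+MIC-1 than with LPS (Ifnar1, Ifnar2, Ifngr2, Irf7 and Irf8) and 1 higher (Irf3). These are 8 and 6 of 16 genes, beside 34.2% and 23.3% of all tested genes called in that setting. Irf7, the regulator that amplifies type I interferon, measured 292, 388 and 317 FPKM in control, 1211, 376 and 1198 FPKM with LPS, and 259, 145 and 257 FPKM with LPS+MIC-1. Its level in LPS libraries 1 and 3 was above the controls, as for Cxcl11 and unlike Cxcl10. Between LPS+MIC-1 and control Irf7 was not called with or without LPS library 2. Interferon genes themselves were scarce, with Ifnb1 at most 1.19 FPKM in macrophages and 0.12 FPKM in liver, and Ifng at most 0.498 FPKM in liver. In liver Irf7 and Usp18, an interferon-induced inhibitor of interferon signalling, were called higher with LPS (Log2FC 2.07 and 1.83, SE 0.26 and 0.18, limma adjusted p = 0.00182 and 0.000609).

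Chemokine mRNAs are known to be short-lived through AU-rich elements, so 6 genes of mRNA decay factors were listed as well. With LPS+MIC-1 against LPS in macrophages 1 was called lower, Zfp36l2, which encodes a protein that promotes decay of AU-rich mRNAs (76.3, 62.7 and 79.6 FPKM with LPS, 26.5, 29.1 and 27.0 FPKM with LPS+MIC-1, Log2FC -1.38, SE 0.12, limma adjusted p = 0.000658), and 0 were called higher. Of all tested genes 3.87% were called in that comparison and 1.81% were called lower. Zc3h12a, the gene of the RNase regnase-1, was called higher with LPS+MIC-1 than in control (Log2FC 2.50, SE 0.33, limma adjusted p = 0.00229). Zfp36l2 was called lower there, and 5.59% of all tested genes were called. The part of mRNA decay in the chemokine levels was not tested. Of the 2 proteases that release CXCL16, Adam17 was called lower with LPS in macrophages without LPS library 2 (Log2FC -1.53, SE 0.13, limma adjusted p = 1.94e-05) and Adam10 was not called.

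The genes most like Cxcl2 and Cxcl10 were found by the Pearson correlation of log2(FPKM + 0.5) over the 9 libraries of a table, as a description. In macrophages they were Sqstm1 (r = 0.999), Procr (0.998) and Slc11a1 (0.997) for Cxcl2, and Ccdc34 (0.998), Polr2e (0.996) and Dyrk3 (0.996) for Cxcl10. In liver they were Asb7 (0.990), Supt6h (0.983) and Rgp1 (0.966) for Cxcl2, and Fcer1g (0.992) and I830012O16Rik (0.991) among those for Cxcl10. None of the genes named here was on the list of a member in both tissues, and 9 libraries in 3 groups let many genes correlate highly.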

How the data were processed

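RNA-seq of 9 RAW264.7 macrophage libraries and 9 mouse liver libraries, 3 per group, was analysed. The authors ran Kallisto 0.45.0 on BGI reads against RefSeq transcripts (mm9), used tximport to reach gene level and DESeq2 1.20.0 to make the deposited FPKM values, 1 table per tissue. Tables of the authors' own DESeq2 comparisons (mean count, log2 fold change, error, statistic and p-values) were not used. Columns were matched to groups by their names, and 0 were left unmatched. They carry no replicate numbers.

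Each table was tested alone. Genes with a mean FPKM above 1 were tested on log2(FPKM + 0.5) with limma 3.58.1 (lmFit, contrasts, eBayes with trend) in R 4.3.3, with all 3 groups in 1 fit, two-sided, and Benjamini-Hochberg adjustment over all genes of a comparison. FPKM is not a count, so no count model was used. Depth was estimated from the steps of low values after taking 150 bases off each transcript length, and 85.6% to 90.1% of low values were whole reads within 0.2 read. The pipeline was tested on simulated data. Coordinates came from GENCODE M1 (mm9) and promoters from RefSeq (GRCm38.p6).

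The genes named were the 10 members, genes of pathway lists that passed the threshold or encode a receptor of a member, and the 3 genes most correlated with Cxcl2 and Cxcl10. Some genes that this rule gives are not reported here. Scarce interferon genes, listed markers at 0, Ppbp and Zmynd15 were named after their values were seen. The members and lists were chosen with earlier results of these data known. Alternatives were other pseudocounts, filters, scalings, thresholds, variance models and samples, and averaging of close libraries, which in liver was chosen after seeing the data.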

Additional observations from a re-analysis of the deposited data

Results flagged for a closer look

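Cxcl10 went in opposite directions in the 2 tissues under the same comparison of LPS+MIC-1 with control. In macrophages its mean was 8.56 FPKM with LPS+MIC-1 and 66.3 FPKM in control, with all 3 treated libraries below all 3 controls. In liver its mean was 12.2 FPKM with LPS+MIC-1 and 2.82 FPKM in control, with all 3 treated libraries above all 3 controls. Each change was called within its tissue by limma, although the call in macrophages was lost in 7 of 21 alternatives (limma adjusted p of up to 0.127). Among them were FPKM rescaled to the same sum (-3.10, adjusted p = 0.0116), libraries 1 and 3 averaged, and fits that left out 1 control or LPS+MIC-1 library. The difference between the tissues was not tested, because the tables were normalized separately and dose and route of treatment also differ between the cultures and the mice. No group has more than 3 libraries, too few for the test of a single outlying value in a group.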

How the results depend on the processing

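Of 693 values of members under an alternative, 629 kept direction and side of the threshold, 29 lost and 28 gained a call, and 7 reversed. None of the 7 was called: Cxcl12 in liver for LPS against control (-0.31 with FPKM rescaled to the same sum, and -0.14 to 0.32 when 1 library was left out, below 0 without control library 2 or 3 or LPS library 2) and for LPS+MIC-1 against control (-0.12 rescaled), and Cxcl2 in liver for LPS+MIC-1 against control (-0.19 rescaled, and -0.0094 to 0.66 when 1 library was left out, lowest without control library 1).

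The count of members called in macrophages depended on the setting. For LPS against control (0 of 5) it was 4 at an unadjusted p below 0.05. For LPS+MIC-1 against LPS (1 of 5) it was 3 with rescaled FPKM, 0 with only the 2 groups compared or with libraries 1 and 3 averaged, and 5 at an adjusted p below 0.05 or an unadjusted p below 0.05. For LPS+MIC-1 against control (3 of 5) it was 0 with libraries 1 and 3 averaged. Leaving out 1 library in turn gave counts of 0 to 5, 0 to 5 and 0 to 4 in these 3 comparisons. For LPS+MIC-1 against LPS, leaving out LPS library 2 gave 5 and leaving out any other library gave 0. For LPS+MIC-1 against control, leaving out control library 1 or 3 or LPS+MIC-1 library 1 or 3 gave 0, and leaving out control library 2 gave 1. In liver the counts were 4 to 5, 0 and 4. The cause was not tested. Over all genes, calls between LPS+MIC-1 and LPS in macrophages (383) were 5 with only the 2 groups, 0 averaged, 823 at an adjusted p below 0.05, 617 with no minimum fold, and 109 to 2310 with 1 library left out. Those between LPS+MIC-1 and control (554) were 1541, 0, 1172, 866 and 141 to 1560. In liver LPS against control (2493) gave 630 averaged, 1102 at an adjusted p below 0.01 and as few as 1227 with 1 library left out. LPS+MIC-1 against control (2560) gave 1383 and 1370 with the first 2 of these, and LPS+MIC-1 against LPS (0) up to 35 with 1 library left out (LPS library 2).

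Libraries 1 and 3 of each macrophage group, and of both LPS groups in liver, were closer to each other than to library 2 but differed by more than sampling noise. They were counted separately, but a difference above sampling noise does not show that they came from separate cultures or mice. Few reads stand behind Cxcl1, Cxcl5 and Cxcl9 in macrophages and Cxcl3 in liver, and they were not tested. No paired analysis was possible because the columns of the tables carry no replicate numbers.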
